A study of Arabidopsis thaliana with 2 samples.

Results

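The cellulose synthase-like (CSL) genes encode membrane glycosyltransferases that build backbones of plant cell wall polysaccharides. Analysed here are 8 of them, in hypocotyls of Arabidopsis thaliana. Members were taken as probe sets with 1 named gene whose symbol is CSLA, CSLB, CSLC, CSLD, CSLE or CSLG with a number. The letters fitted 7 genes directly, and ATCSLC08 was counted with them because its symbol differs only by the species prefix. These 8 stand among 13513 probe sets with 1 named gene and 22746 plant probe sets in all. The gene table used for naming holds 30 genes of these subfamilies. It lists 5 CSLC genes, and all of them were measured, with 2 of the 9 CSLA genes and 1 of the 6 CSLD genes. The other 22 genes, among them every CSLB, CSLE and CSLG gene, had no probe set with 1 named gene and are not analysed here. Genes are called measured in this report only where a probe set named them alone. The annotation used covers 14016 probe sets, so a gene not called measured may still be on the array.

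The data are 2 samples of hypocotyls, the stem below the seed leaves, called sample 1 and sample 2, each on its own 1-colour Affymetrix ATH1 array. Both carry the same labels for tissue, ecotype and growth. The plants were of the col ecotype at growth stage 6.0, with no genotype change given, and grew on compost and vermiculite in a phytotron at 22 °C under 8 h of light and 16 h of darkness, with Intercept, an insecticide product, in the first watering. There is thus 1 group and no contrast between conditions, and no test was possible. The study's title places the work in secondary wall development of short-day hypocotyls. Whether separate plants were harvested for each is not stated, so differences between the arrays may be technical. The number of arrays limits the precision.

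Xyloglucan and mannans are hemicelluloses made in the Golgi, where a CSL protein polymerises the backbone and other enzymes can add side chains before the polymer is exported to the wall. CSLC proteins make the glucan backbone of xyloglucan, the hemicellulose that coats cellulose in primary walls of growing cells. CSLA proteins make mannan and glucomannan backbones, and CSLD proteins act in tip-growing cells such as root hairs and in cell plates, at the plasma membrane or the forming plate.

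All values below are probe set signals in scaled array units, or the log2 ratio of sample 2 over sample 1. Probe sets respond unequally to equal amounts of RNA, so signals are compared between samples and not between genes. A probe set was counted as above the limit where its signal exceeded the brightest of 27 control probe sets for Bacillus transcripts, which was 13.1 in sample 1 and 12.6 in sample 2. Of the 8 CSL genes, 7 were above the limit on both arrays, against 70.0% of all plant probe sets. The brightest-control limit left out CSLA01.

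CSLC04, a xyloglucan glucan synthase gene, gave 111.9 signal units in sample 1 and 288.8 in sample 2. Sample 2 was the higher one, by 2.58-fold or a log2 ratio of 1.37, and the mean was 200.3 ± 125 (SD, n = 2). Among the 15919 plant probe sets that passed the limit in both samples, its ratio ranked 14 from the top. CSLC04 was the 1 CSL gene of the 7 with signals at least 2-fold apart. Of these 15919, 0.320% were at least 2-fold higher in sample 2 and 0.144% at least 2-fold higher in sample 1. In the range of mean signal from 100 to 400, which holds CSLC04, 15 of 5297 probe sets were at least 2-fold higher in sample 2, or 0.283%. The log2 ratios in that range had an SD of 0.21, and 4 probe sets, CSLC04 included, had a ratio as high. Hypocotyl RNA mixes cell types, so fewer cells of a type and less RNA per cell cannot be told apart in any of these values.

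The other 4 CSLC genes, which also encode xyloglucan glucan synthases, had smaller differences and went both ways. CSLC5 had 132.5 in sample 1 and 116.7 in sample 2, averaging 124.6 ± 11.2 (SD, n = 2), at a log2 ratio of -0.18. CSLC6 had 84.2 and 79.2, averaging 81.7 ± 3.54, at a log2 ratio of -0.09. Both were therefore slightly higher in sample 1, the reverse of CSLC04. Such differences were common: 28.2% of probe sets with mean signals from 100 to 400 differed by at least as much as CSLC5 in either direction. For CSLC6 the share was 65.0%, in the range from 50 to 100.

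ATCSLC08 had 43.0 in sample 1 and 51.5 in sample 2, averaging 47.2 ± 6.01 (SD, n = 2), at a log2 ratio of 0.26. CSLC12 had 22.2 and 27.7, averaging 24.9 ± 3.89, at a log2 ratio of 0.32, and was the gene closest to the limit among those that passed it. These 2 genes were higher in sample 2, as CSLC04 was, but by 1.20-fold and 1.25-fold. Among probe sets with mean signals from 20 to 50, 38.5% differed by at least as much as ATCSLC08 in either direction, and 29.1% as CSLC12. The median log2 ratio of the CSLC subfamily was 0.26 over 5 genes and 0.09 over the 4 without CSLC04, beside 0.0007 over all plant probe sets above the limit.

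**Figure D1:**
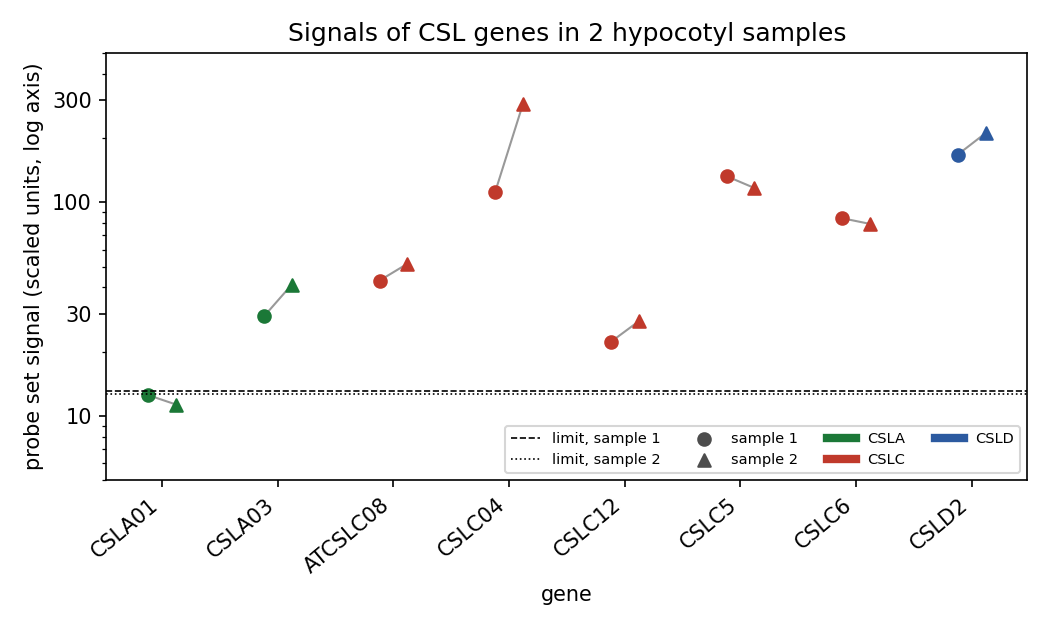
Probe set signal (scaled units, log axis) of each CSL gene in sample 1 (circles) and sample 2 (triangles), coloured by subfamily, with the limit of each array as a horizontal line. CSLC04 goes from 111.9 to 288.8, the other lines are much flatter, and CSLA01 lies under both limits.

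Of the mannan synthase subfamily, CSLA03, which acts with other CSLA genes in making glucomannan of stems, had 29.2 in sample 1 and 41.1 in sample 2. It was the CSL gene with the next largest ratio after CSLC04, 1.41-fold higher in sample 2, averaging 35.1 ± 8.41 (SD, n = 2), at a log2 ratio of 0.49. Probe sets are noisier at such signals. Among the 4020 with mean signals from 20 to 50, log2 ratios had an SD of 0.33, and 12.5% differed by at least as much as CSLA03 in either direction. CSLA01, also of the mannan synthase subfamily, had 12.5 and 11.3, just under the limits of 13.1 and 12.6. For that reason no ratio is drawn from CSLA01. It did pass the lower limit set by the TrpnX controls alone, 2.5 in sample 1 and 3.3 in sample 2.

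CSLD2, needed with its relative CSLD3 for normal root hair growth, had 167.3 in sample 1 and 210.9 in sample 2. The signal was 1.26-fold higher in sample 2, averaging 189.1 ± 30.8 (SD, n = 2), at a log2 ratio of 0.33. In its range of mean signal, 100 to 400, 8.89% of probe sets differed by at least as much in either direction, so the difference lies within the central 95% of that range, from -0.37 to 0.44. The signal of CSLD2 was well clear of the limit in hypocotyls. EXPA7 and EXPA18, expansin genes of root hairs, were just above it, at 14.9 and 15.2 in sample 1 and 13.6 and 15.0 in sample 2. They were the 2 measured genes of 6 on a root hair list. Signals are not compared between these genes and CSLD2, and the cells that gave the CSLD2 signal were not tested.

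Across the family, 5 of the 7 genes above the limit, or 71.4%, were higher in sample 2 by any amount, against 50.1% of all plant probe sets above it. Their median log2 ratio was 0.32, and without CSLC04 it was 0.29 over 6 genes. At a signal of 50 or more on both arrays, 4 CSL genes remained in view, namely CSLC04, CSLC5, CSLC6 and CSLD2, with 2 higher in each sample and a median of 0.12. Of all plant probe sets 45.1% reached that signal, and 48.5% of these were higher in sample 2. CSLA03, CSLC12 and ATCSLC08, all higher in sample 2, fell short of it on at least 1 array. CSLC04 is the member whose log2 ratio lay outside the central 95% of probe sets in its range of signal, and 6 lay inside.

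**Figure D2:**
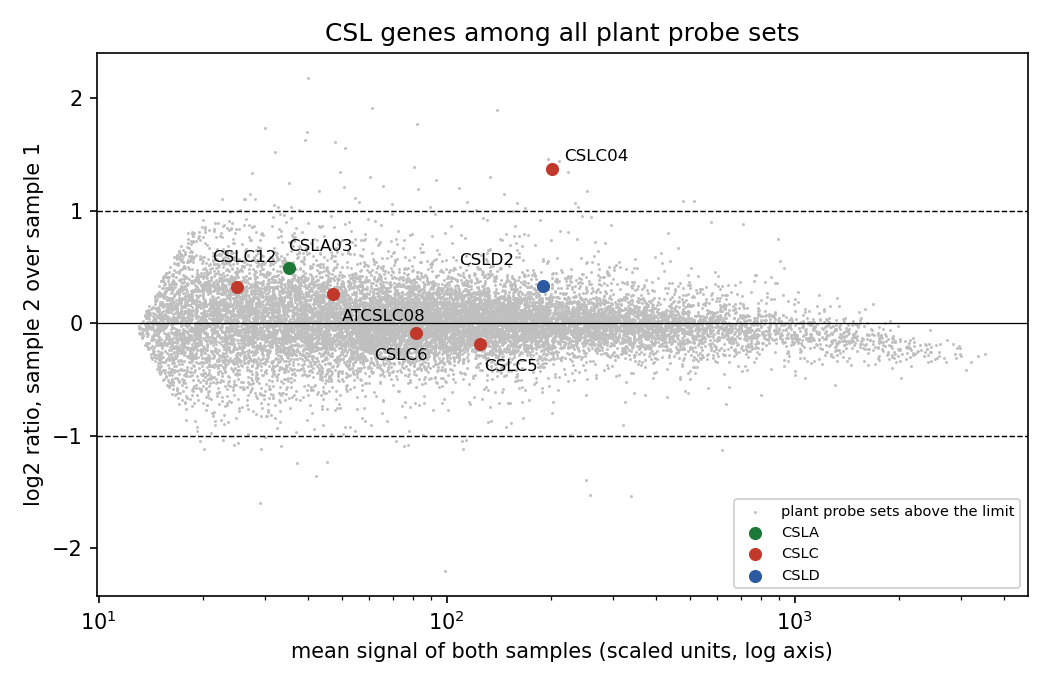
Log2 ratio of sample 2 over sample 1 against mean signal (log axis) for 15919 plant probe sets that passed the limit in both samples (grey), with 7 CSL genes coloured by subfamily and dashed lines at 2-fold. CSLC04 stands at 1.37, above nearly all grey points of its signal, and the other CSL genes lie among them.

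Other genes of wall polysaccharide synthesis were looked up in lists of loci. None of 14 genes for xyloglucan side chains and trimming had a probe set with a single named gene, so the enzymes that decorate the CSLC product are not analysed here. On the mannan list 1 of 12 genes was measured, AT2G22900, with 273.2 in sample 1 and 256.7 in sample 2. Its log2 ratio was -0.09, opposite in sign to that of CSLA03. That is small beside the SD of 0.21 among probe sets with mean signals from 100 to 400.

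On the cellulose synthesis list 5 of 20 genes were measured, and 3 were higher in sample 2 and 2 in sample 1, with a median log2 ratio of 0.05. COB, a membrane-anchored protein gene needed for oriented cellulose deposition, had the lowest ratio, -0.25, and AT3G57420 the highest, 0.25, with 70.9 and 84.2. AT1G45688, AT2G41770 and AT5G42860 lay between these, at 0.05, 0.11 and -0.13. On the nucleotide sugar list 3 of 19 genes were measured. USP, whose enzyme makes UDP-sugars from sugar phosphates, had 146.1 and 153.0, and AT2G30460 and AT1G06890 also had ratios between 0.05 and 0.10. None of these 9 listed genes was 2-fold apart, against 0.465% of plant probe sets above the limit. At so small a share, 9 genes are too few for that count to be compared with it.

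**Figure D3:**
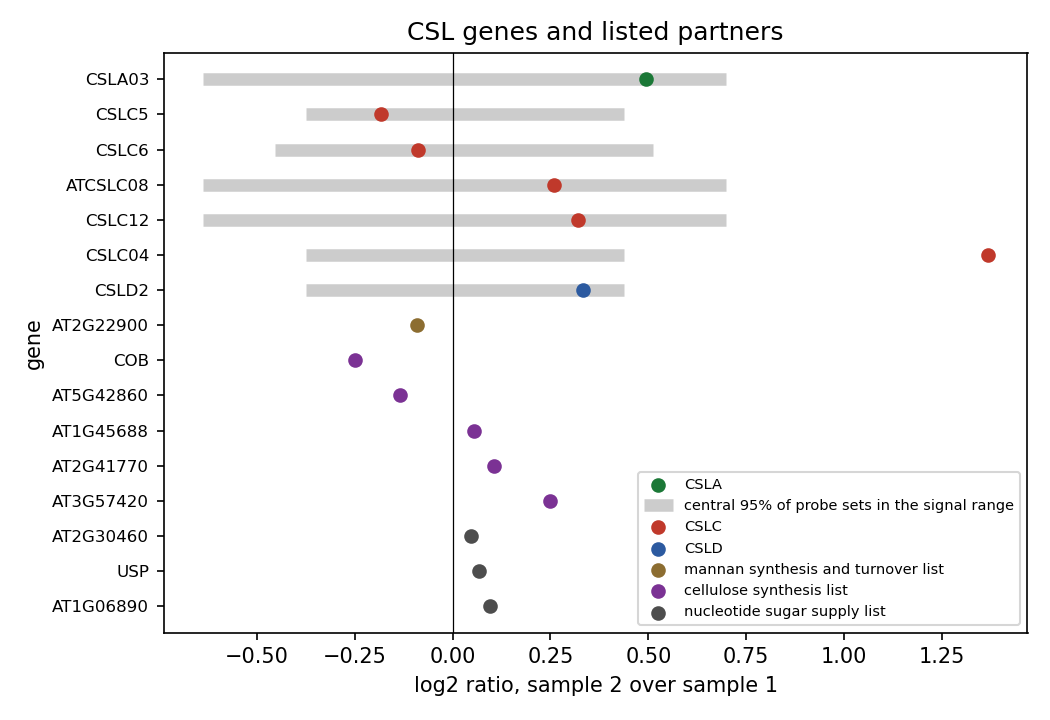
Log2 ratio of sample 2 over sample 1 for each CSL gene above the limit and for the measured genes of 3 lists, called partners in the title. The lists are for mannan, cellulose synthesis and nucleotide sugars. Grey bars span the central 95% of probe sets in the CSL gene's range of mean signal. CSLC04 at 1.37 lies beyond its bar, CSLD2 and CSLA03 lie inside theirs, and the listed genes lie between -0.25 and 0.25.

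Genes whose difference between the samples was most like that of CSLC04 were sought among 2781 other single-gene probe sets with mean signals within 2-fold of it. With 2 arrays the pattern is a single ratio, and likeness is the distance between log2 ratios. The nearest was AT2G41640, with 113.1 in sample 1 and 306.4 in sample 2, a distance of 0.07. It was followed by AT3G02840, with 90.7 and 201.2 and a distance of 0.22, and by the expansin-like gene EXLA2, with 73.4 and 155.2 and a distance of 0.29. AT1G77640 and AT3G27540 completed the 5, with distances of 0.30 and 0.35. A shared ratio between 2 arrays says nothing of a shared role.

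The genes next to CSLC04 on the chromosome were dim. AT3G28170, on one side, had 9.1 and 8.3, and AT3G28190, on the other, had 1.1 and 3.2, all under the limits. Of 16 protein-coding genes that flank the 8 CSL genes, 5 had a single-gene probe set, and 2 passed the limit in both samples. UBP19, a ubiquitin protease gene beside ATCSLC08, had 42.1 and 29.3, a log2 ratio of -0.52 where that of ATCSLC08 was 0.26. AT3G07320 beside CSLC6 had 137.1 and 149.9, a log2 ratio of 0.13 where that of CSLC6 was -0.09.

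Some properties of the arrays differed between the samples. The average background in the labels was 79.94 for sample 1 and 95.57 for sample 2. Average noise was 4.81 and 6.28, and the labels count 586 and 974 outlier cells on the arrays. The 3' to 5' signal ratio of one actin series was 8.45 and 6.55. That ratio was closer between the samples for the other actin series, at 1.34 and 1.29, for ubiquitin, at 1.82 and 1.85, and for GAPDH, at 1.16 and 1.14. All 18 hybridisation control probe sets, whose added amounts the labels do not give, were lower in sample 2, with a median log2 ratio of -0.78, so every ratio here is relative to the scaled whole array and not to those controls. Leaf photosynthesis genes RCA and LHCB4.1, the 2 measured genes of 4 on their list, were far above the limit on both arrays. RCA had 242.8 in sample 1 and 251.8 in sample 2, and LHCB4.1 had 653.0 and 694.4. Their log2 ratios were 0.05 and 0.09. AT5G07230 and AMS, the measured genes of a list for anther and pollen, were under the limit on both arrays. None of 6 listed xylem genes had a probe set with a single named gene in the annotation used. The labelled tissue was therefore not checked against xylem markers. The part of these properties in the CSLC04 difference was not tested.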

How the data were processed

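RNA from 2 hypocotyl samples was hybridised as biotin-labelled cRNA, 1 ATH1 array per sample, per the labels. What the authors deposited is a linear intensity for each of 22810 probe sets, to 1 decimal. Their summarising software is not given in the sources. Both columns have a 2%-trimmed mean of 100, read from the values as the authors' scaling, and were set to exactly that by a factor of 0.99993 each. Counts leave out 64 control probe sets. Of 14016 annotated probe sets, 13513 had 1 gene and 503 several, and 13436 of the former were matched by gene identifier to the RefSeq gene table of TAIR10.1, whose coordinates are not given because the values name no build. Samples share the labelled tissue and were treated as 1 group. No test was run. Named genes are the CSL genes, every measured gene of the mannan, cellulose synthesis and nucleotide sugar lists and the 5 nearest to CSLC04. The members, the lists and the limit were chosen with earlier results of these data known. The flanking genes were added after seeing the data. Alternatives were other scalings, limits, fold thresholds, a pseudocount of 16, plain probe set names and single samples. Steps were tested on simulated data, with matplotlib 3.10.9, statsmodels 0.14.6, scipy 1.17.1, pandas 2.3.3 and numpy 2.4.6 under Python 3.11.15.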

Additional observations from a re-analysis of the deposited data

How the results depend on the processing

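The settings that can alter a gene's log2 ratio, namely scaling to the same median, quantile, loess and adding 16, gave 28 values for CSL genes. None changed sign. Adding 16 cannot change one, and the same median moved every ratio alike, by less than the size of any of them, so it could not either. The largest move was 0.16, and each move was less than the SD in that range of signal. Other limits and plain names leave a ratio as it is. That of CSLC04 lay between 1.25, after adding 16 before log2, and 1.37. The family median was 0.28 after quantile normalization, 0.28 after loess with a span of 0.3, 0.30 at the same median, 0.19 after adding 16 and 0.12 at a limit of 50. At that limit 4 CSL genes passed, and 8 passed with the TrpnX limit (2.5 and 3.3) or none. From either sample alone, 7 to 7 CSL genes were above the limit. At 3-fold, 0 CSL genes were apart, and CSLC04 was the 1 gene apart at 1.5-fold. Plant probe sets at least 2-fold apart numbered 74, and 629 with the TrpnX limit, 27 at a limit of 50, 2097 with no limit and 26 after adding 16. At 1.5-fold they numbered 603, and at 3-fold 10. Higher in sample 2 and in sample 1, those 74 split into 51 and 23, against 46 and 30 after quantile normalization, 46 and 29 at the same median, 47 and 29 after loess and 21 and 5 after adding 16. No paired analysis was possible because both samples form 1 group. Low signal limits the dim genes CSLA01, CSLA03, CSLC12 and ATCSLC08 most.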
